A study of Mus musculus with 6 samples.

Results

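Ribosomes are built in the nucleolus, where RNA polymerase I transcribes the ribosomal RNA precursor and small nucleolar ribonucleoproteins (snoRNPs) modify it. Processing and assembly factors then cut the precursor and fold it with ribosomal proteins into the small (40S) and large (60S) subunits. Proliferating embryonic stem cells are known for prominent nucleoli and a high output of ribosomes. The genes described here are 46 members of this machinery, chosen by name for their role. They comprise 7 genes of RNA polymerase I and its factors, 3 of the box C/D snoRNP core, 4 of the box H/ACA snoRNP core, 4 nucleolar proteins with broader roles, 14 of the small subunit processome and 40S maturation, and 14 of 60S assembly. Of the 23238 gene symbols in the count files, 45 were members under their current symbol, and Utp4 was found under its older symbol Cirh1a.

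The study measured 3′ RNA tags in stable lines of mouse embryonic stem cells of strain 129/Ola that the labels call Niwa cells. The EGFP line is the control, and the EWS-OCT4 line carries GFP-tagged EWS-OCT4A, in which the EWS protein of Ewing sarcoma is joined to OCT-4 isoform A. There were 3 libraries per line, all from cells kept in stem cell medium that contained LIF. Cells of both lines received doxycycline at 1 µg/ml, which lowers their endogenous OCT-4. No library without doxycycline was analysed here, so every direction given is that of the EWS-OCT4 line relative to the EGFP control. Whether each line is a single clone is not stated in the labels, and the fusion cannot be told apart from anything else that sets the lines apart. Separate cultures are not named for the libraries either. The spread that p-values rest on is that between these samples, and it may be technical.

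Libraries held between 10978025 and 14935887 counts. Levels are in TMM-scaled CPM, the counts of a gene per 1e6 counts of the library, and 1 count stood for 0.0670 to 0.0911 CPM before that scaling. Differences are log2 fold changes of the EWS-OCT4 line against the EGFP line with their standard error (SE). Unless another fit or test is named, adjusted p-values are from edgeR's quasi-likelihood test with Benjamini-Hochberg adjustment over all 13467 genes tested. Those of other fits, such as fits without a library, were adjusted over the genes that the fit kept. Gene coordinates are on GRCm38. A gene is said to have risen or fallen where its adjusted p was at most 0.05. In both lines the library numbered 3 stood apart. Its chi-square per degree of freedom against the other EGFP libraries was 24.7 and 26.2, and against the other EWS-OCT4 libraries 33.0 and 33.2. Numbers 1 and 2 gave 3.90 for EGFP and 4.09 for EWS-OCT4.

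The labelled cell type was checked against markers. Pou5f1, the gene of OCT-4, was at 0.372, 0.911 and 0.650 CPM in the EGFP libraries and 1.66, 1.94 and 3.02 CPM in the EWS-OCT4 libraries (log2 difference 1.76, SE 0.51, adjusted p = 0.0108). That call was lost without EWS-OCT4 replicate 3 (adjusted p = 0.0542). Ewsr1, the gene of EWS, did not pass the test (log2 difference -0.26, SE 0.21, adjusted p = 0.295). The labels do not give the 3′ end of the fusion transcript, so neither gene checks them. All 9 stem cell markers were higher in the EWS-OCT4 line, and their summed level was 310.0 to 379 CPM in the EGFP libraries against 4615 to 5183 CPM. All 10 trophoblast markers were lower, with sums of 4809 to 5397 CPM against 254 to 282 CPM, and no EWS-OCT4 library held a count of Plac1. The 8 primitive endoderm markers summed to 108 to 128 CPM against 54.5 to 92.6 CPM, with 2 of 5 tested higher and 3 lower. The 8 fibroblast markers summed to 14.9 to 17.3 CPM against 24.9 to 32.8 CPM, with 2 of 6 tested higher and 1 lower, and again no EWS-OCT4 library held a count of Postn. The EGFP line therefore had low levels of the markers of its labelled cell type. Every difference below moves with these marker levels, and their part in it was not tested. In bulk RNA, fewer cells of a type and less RNA per cell cannot be told apart.

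Nucleolar ribosome biogenesis genes were mostly higher in the EWS-OCT4 line. All 46 passed the filter on low counts, and 26 rose while 3 fell, which left 17 with an adjusted p above 0.05. Across all genes tested, 67.4% passed, 33.3% higher and 34.1% lower, so members passed about as often as other genes but split differently between directions, with 56.5% higher and 6.52% lower. Among the 8921 genes that averaged 10 CPM or more, as every member did, 70.8% passed, 33.7% higher and 37.1% lower. The median log2 difference of the members was 0.46 (1.38-fold), against -0.0042 over all genes tested, and the range ran from -1.47 (Ltv1) to 2.05 (Nop10). For 31 members the libraries of the lines did not overlap, 27 higher and 4 lower, where 72.7% of all genes tested did so, 36% higher and 36.7% lower, and 75.8% of those at 10 CPM or more. Together the members took 0.897%, 0.897% and 1.01% of each EGFP library and 1.49%, 1.46% and 1.73% of each EWS-OCT4 library. Of the 26 rises 11 reached 2-fold, as did 1 of the 3 falls. Among all 13467 genes tested, 2933 of the 4482 rises and 3179 of the 4591 falls did so. When the test asked for a change beyond 1.5-fold, 16 members were higher and 1 was lower. The share of all genes that passed that test is not given here.

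**Figure D1:**
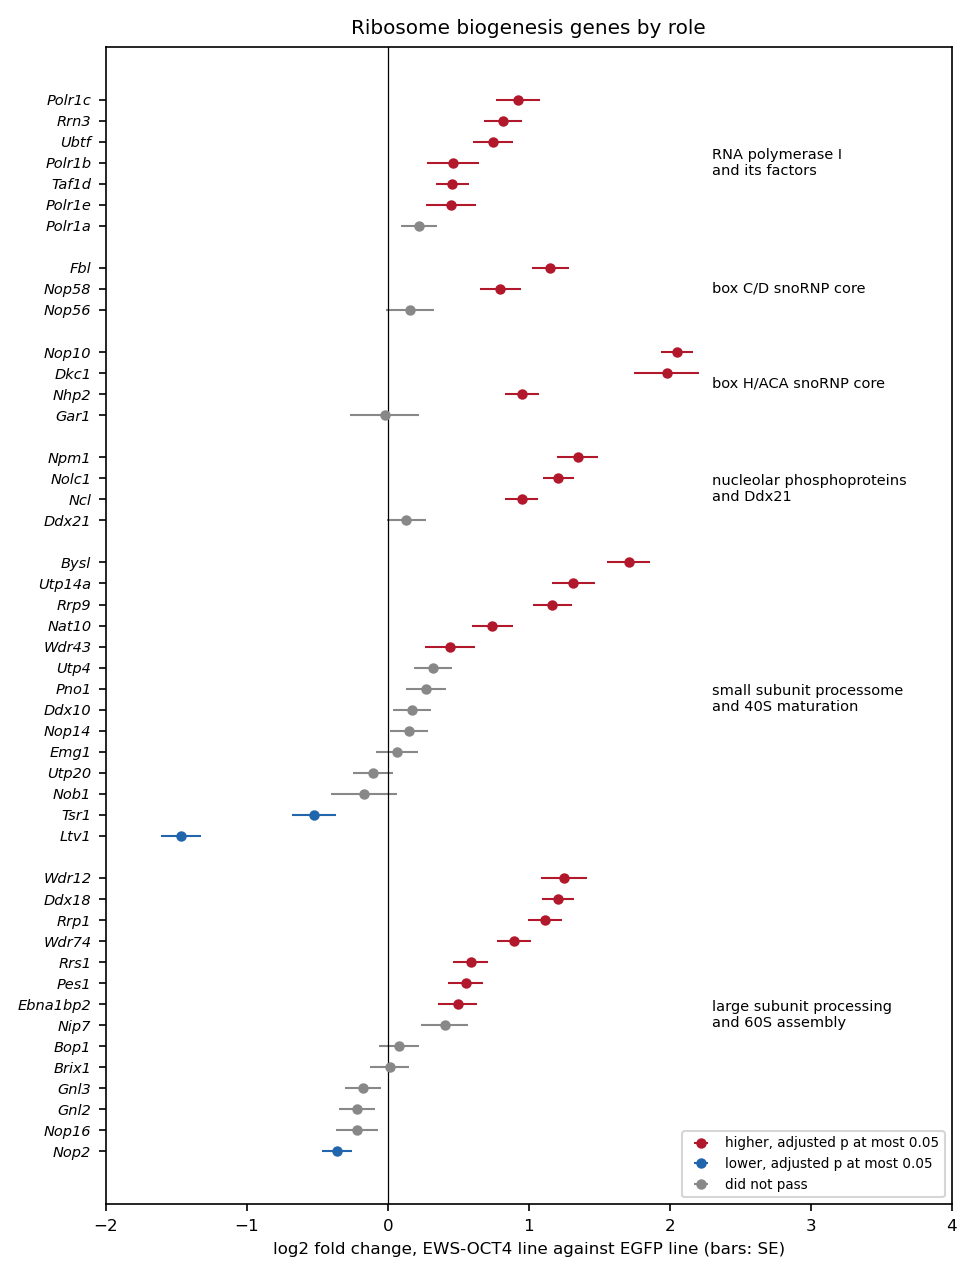
Log2 fold change of each of the 46 genes in the EWS-OCT4 line against the EGFP line (x axis, with SE bars), grouped by role (y axis). Red points passed the test as higher, blue as lower, and grey did not pass. The pair at the top of the box H/ACA group, Nop10 at 2.05 and Dkc1 at 1.98, lies farthest to the right, and Ltv1 at -1.47 farthest to the left.

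Short stretches of promoter sequence are shown first because 26 of the members rose and because MYC proteins, known regulators of ribosome biogenesis, bind the E-box CACGTG. RefSeq promoters on GRCm38.p6 (the assembly of mm10) were matched for 41 of the 46 members, and 250 bases before each start were searched on both strands. The E-box was present in 2 of the 41 genes (4.88%), Nop2 and Rrn3, against 10.1% of the 10162 tested genes with a promoter and 6.86% of the 27025 genes with a RefSeq promoter. CCGGAAGT, a binding sequence of ETS-family factors that was chosen after the E-box had been counted, was present in 8 of 41 (19.5%): Emg1, Gar1, Ltv1, Nhp2, Nip7, Polr1c, Utp4 and Wdr74. Of the tested genes with a promoter 6.57% held it, and of all RefSeq genes 3.23%. The palindrome known as the Kaiso motif, also chosen afterwards, was in none of the 41, against 0.935% of tested genes. No motif contains or overlaps another. A match is a description and not a binding site. Base composition was similar, with a median of 57.4% G and C in the 48 member promoters and 60% in the 12965 promoters of tested genes. The E-box is in capitals in the first and second sequence below and each CCGGAAGT match, on either strand, in the others. The Ltv1 stretch holds 2 such matches, 1 on each strand. All are written 5′ to 3′ on the strand of the gene.
Rrn3 (chr16:13780601-13780698, plus strand): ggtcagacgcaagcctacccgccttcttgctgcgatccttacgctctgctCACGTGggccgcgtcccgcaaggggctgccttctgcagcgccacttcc
Nop2 (chr6:125131773-125131878, plus strand): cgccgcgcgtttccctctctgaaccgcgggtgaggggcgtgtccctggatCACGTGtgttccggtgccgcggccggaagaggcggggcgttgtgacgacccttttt
Polr1c (chr17:46248046-46248137, minus strand): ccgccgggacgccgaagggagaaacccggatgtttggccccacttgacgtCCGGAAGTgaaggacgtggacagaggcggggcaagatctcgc
Wdr74 (chr19:8735762-8735838, plus strand): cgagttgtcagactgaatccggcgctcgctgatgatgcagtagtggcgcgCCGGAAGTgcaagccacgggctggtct
Gar1 (chr3:129831397-129831490, minus strand): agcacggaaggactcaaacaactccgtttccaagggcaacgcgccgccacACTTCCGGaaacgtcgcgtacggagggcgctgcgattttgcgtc
Ltv1 (chr10:13193178-13193285, minus strand): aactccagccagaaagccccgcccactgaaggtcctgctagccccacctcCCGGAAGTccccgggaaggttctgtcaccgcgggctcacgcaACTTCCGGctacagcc
Of these 6 genes Rrn3, Polr1c and Wdr74 rose, Nop2 and Ltv1 fell, and Gar1 did not pass the test, so neither motif went with a single direction among the members shown. Of the 8 members with CCGGAAGT, 3 rose (Nhp2, Polr1c, Wdr74), 1 fell (Ltv1) and 4 did not pass. Beside them, 33.3% of all genes tested rose and 34.1% fell, and 56.5% of all 46 members rose and 6.52% fell.

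RNA polymerase I makes the 45S precursor of ribosomal RNA. Of its 7 genes here, 6 rose (85.7%) and 1 did not pass (median 0.46 on the log2 scale). Across all genes tested 33.3% rose and 67.4% passed in either direction. Polr1c, a subunit shared with RNA polymerase III (chromosome 17, 46243920 to 46248054), was at 83.8, 93.4 and 121 CPM in the EGFP libraries and 175, 180.2 and 211 CPM in the EWS-OCT4 libraries (log2 difference 0.93, SE 0.16, adjusted p = 4.5e-04). Rrn3, the factor that joins the polymerase to the promoter (chromosome 16, 13780708 to 13814839), was at 100.3, 94.7 and 88.1 CPM in the EGFP libraries and 156, 150.3 and 192 CPM in the EWS-OCT4 libraries (log2 difference 0.82, SE 0.13, adjusted p = 3.5e-04). For Ubtf, which binds and opens the ribosomal DNA, the values were 65.4, 69.5 and 73.2 CPM in the EGFP libraries and 135, 116 and 99.1 CPM in the EWS-OCT4 libraries (log2 difference 0.75, SE 0.14, adjusted p = 9.7e-04). The lines did not overlap in any of these, and EWS-OCT4 replicate 3 was the highest library for Polr1c and Rrn3 and the lowest of its line for Ubtf. Taf1d, a subunit of the promoter selectivity factor, was at 183, 152 and 181 CPM in the EGFP libraries and 235, 231 and 243 CPM in the EWS-OCT4 libraries (log2 difference 0.46, SE 0.12, adjusted p = 0.00552). Rises of like size were found in Polr1b, the second subunit in size (19.5 ± 4.02 to 26.9 ± 1.91 CPM, log2 difference 0.46) and Polr1e (15.3 ± 1.80 to 20.8 ± 1.64 CPM, 0.45), where ± is the SD over 3 libraries, a form also used below. The 3′ end of Polr1b matches stretches of other genes, and that of Taf1d a processed pseudogene (96.2% over 104 bases), so their counts are uncertain. The calls of Polr1b (adjusted p = 0.0469) and Polr1e (adjusted p = 0.0437) lay near the threshold. Polr1b lost its call when any library numbered 1 or 2 was left out, with an adjusted p of up to 0.191. Polr1e kept its call in 1 of the 6 fits that left out a library, the fit without EGFP replicate 3, and its adjusted p reached 0.147 in the others. Polr1a, the catalytic subunit, was at 61.8, 56.9 and 65.1 CPM in the EGFP libraries and 71.6, 67.7 and 75.0 CPM in the EWS-OCT4 libraries and did not pass (log2 difference 0.22, SE 0.13, adjusted p = 0.147), although its libraries did not overlap.

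The box C/D snoRNP carries out 2′-O-methylation of ribosomal RNA. Fbl, the methyltransferase (chromosome 7, 28169710 to 28179269), was at 113, 114 and 112 CPM in the EGFP libraries and 221, 238 and 294 CPM in the EWS-OCT4 libraries (log2 difference 1.15, SE 0.13, adjusted p = 3.2e-05). Its EGFP values were nearly the same in the 3 libraries, and all EWS-OCT4 values were higher. Nop58, a scaffold subunit, was at 421, 458 and 516 CPM in the EGFP libraries and 759, 697 and 971 CPM in the EWS-OCT4 libraries (log2 difference 0.80, SE 0.15, adjusted p = 7.6e-04). Its partner scaffold Nop56 was at 223, 197 and 239 CPM in the EGFP libraries and 202, 219.8 and 313 CPM in the EWS-OCT4 libraries and did not pass (log2 difference 0.16, SE 0.17, adjusted p = 0.43). For Nop56 the lines overlapped, with replicate 3 of the EWS-OCT4 line highest, and without that library the difference was -0.06. Whether the changes of Nop56 and Nop58 differ was not tested. At 3′ ends, Nop56 matches 5 processed pseudogenes and Fbl 1. Fbl also matches a transcript of Tulp4 (100% over 199 bases), which had 1503 counts over the 6 libraries, and Nop58 matches stretches of other genes, so some of their tags may be misplaced.

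The box H/ACA snoRNP isomerises uridine to pseudouridine, and it held the largest rises among the members. Nop10, its smallest core protein (chromosome 2, 112261926 to 112263269), was at 60.3, 59.98 and 60.6 CPM in the EGFP libraries and 236, 266 and 247 CPM in the EWS-OCT4 libraries (log2 difference 2.05, SE 0.11, adjusted p = 2.4e-07), a 4.14-fold difference. Dkc1, the pseudouridine synthase dyskerin, which is also part of telomerase (chromosome X, 75095854 to 75109777), was at 93.0, 103 and 176 CPM in the EGFP libraries and 436, 463 and 569 CPM in the EWS-OCT4 libraries (log2 difference 1.98, SE 0.23, adjusted p = 3.7e-05). Nhp2, another core protein, was at 67.3, 68.5 and 74.2 CPM in the EGFP libraries and 125, 136 and 146 CPM in the EWS-OCT4 libraries (log2 difference 0.95, SE 0.12, adjusted p = 6.7e-05). All 3 genes had every EWS-OCT4 library above every EGFP library. For Dkc1, EGFP replicate 3 was the highest of its line, and the difference was 2.31 without it. Gar1, the fourth core protein, did not pass (log2 difference -0.02, SE 0.25, adjusted p = 0.943), with 97.8, 96.3 and 102 CPM in the EGFP libraries and 119.9, 117 and 55.4 CPM in the EWS-OCT4 libraries. EWS-OCT4 replicate 3 was the lowest of all 6 libraries, while the others of that line were the highest. Without it Gar1 was higher, by 0.26 on the log2 scale (adjusted p = 0.0318).

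Among the nucleolar proteins with broader roles 3 of 4 genes rose (75%), where 33.3% of all genes tested rose and 67.4% passed. Ncl, which encodes nucleolin, an RNA-binding protein of early precursor processing (chromosome 1, 86344719 to 86359400), was at 2589, 2611 and 2821 CPM in the EGFP libraries and 4951, 4706 and 5831 CPM in the EWS-OCT4 libraries (log2 difference 0.95, SE 0.12, adjusted p = 6.0e-05). Npm1, which encodes the histone and ribosome chaperone nucleophosmin (chromosome 11, 33152287 to 33163206), was at 763, 805 and 983 CPM in the EGFP libraries and 1968, 1971 and 2547 CPM in the EWS-OCT4 libraries (log2 difference 1.35, SE 0.15, adjusted p = 2.4e-05). Nolc1, whose product Nopp140 is a chaperone of snoRNPs, was at 212, 188 and 210.1 CPM in the EGFP libraries and 462, 458 and 489 CPM in the EWS-OCT4 libraries (log2 difference 1.21, SE 0.11, adjusted p = 6.2e-06). Each of the 3 was higher in every EWS-OCT4 library than in any EGFP library. Leaving out Ncl and Npm1, the members summed to 5436 to 6032 CPM in the EGFP libraries and 8176 to 9412 CPM in the EWS-OCT4 libraries, against 8846 to 9837 and 14853 to 17789.7 CPM for all 46. Ddx21, a helicase of precursor transcription and processing, was at 513, 495 and 579.5 CPM in the EGFP libraries and 505, 544 and 688 CPM in the EWS-OCT4 libraries and did not pass (log2 difference 0.13, SE 0.14, adjusted p = 0.428). The 3′ end of Npm1 matches 5 processed pseudogenes, so some of its tags may be misplaced.

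**Figure D2:**
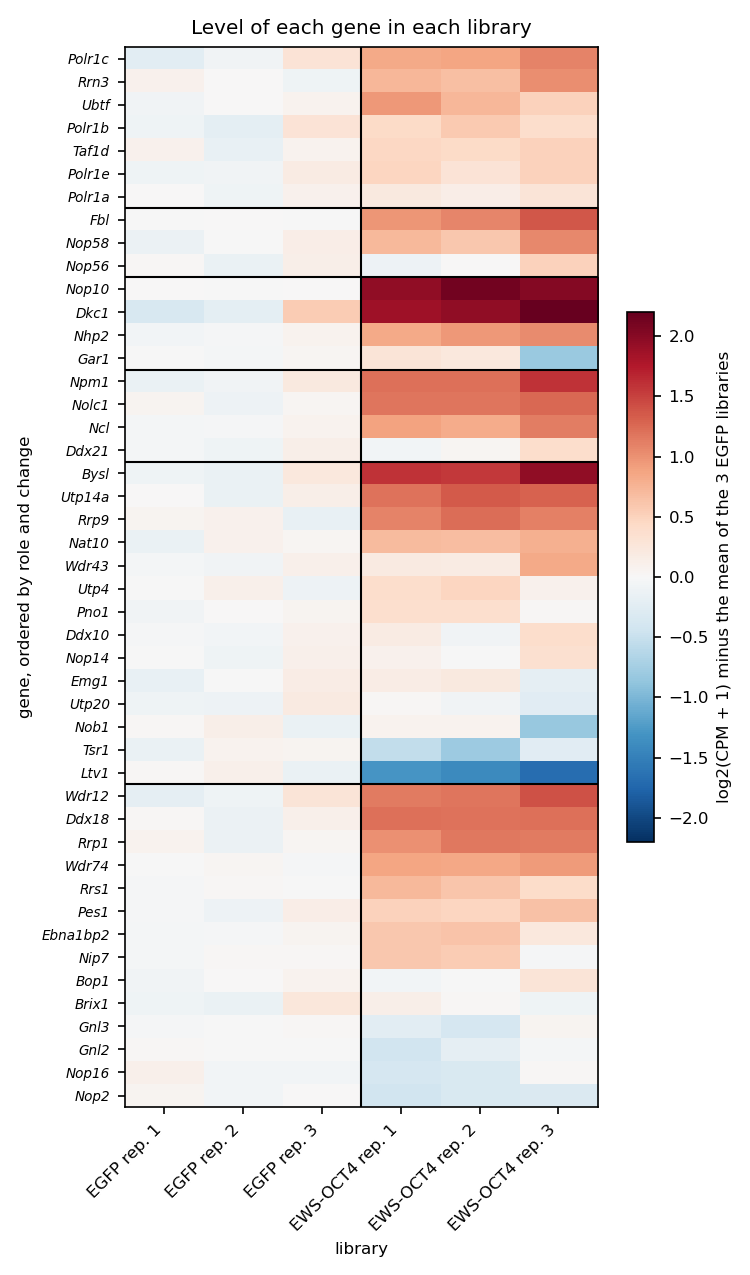
Level of each of the 46 genes (y axis, by role and change) in each of the 6 libraries (x axis), as log2(CPM + 1) minus the mean of the 3 EGFP libraries. Red is higher and blue lower, the vertical line parts the lines, and horizontal lines part the roles. In the column of EWS-OCT4 replicate 3, Gar1 and Nob1 are blue where the other EWS-OCT4 libraries are not. Emg1 and Brix1 show the same more faintly. Ltv1 is blue in all 3 EWS-OCT4 libraries.

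The small subunit processome cuts the precursor and folds the 18S part, and later factors finish the 40S subunit. Its 14 genes were divided, with 5 higher, 2 lower and 7 that did not pass (median 0.22). The 35.7% that rose is near the 33.3% of all genes tested, and the 14.3% that fell is below their 34.1%. Utp14a, an activator of the processome helicase (chromosome X, 48256862 to 48282453), was at 18.3, 16.3 and 20.0 CPM in the EGFP libraries and 42.7, 47.6 and 45.96 CPM in the EWS-OCT4 libraries (log2 difference 1.32, SE 0.15, adjusted p = 3.1e-05). Rrp9, a protein of the U3 snoRNP (chromosome 9, 106475963 to 106485424), was at 32.6, 33.0 and 27.7 CPM in the EGFP libraries and 67.5, 73.9 and 67.9 CPM in the EWS-OCT4 libraries (log2 difference 1.17, SE 0.14, adjusted p = 4.1e-05). Nat10, which acetylates cytidines of 18S RNA, rose from 24.1 ± 2.13 to 40.3 ± 1.57 CPM (log2 difference 0.74). In these genes the lines did not overlap. Wdr43, an early processome subunit, was at 298, 290.2 and 333 CPM in the EGFP libraries and 350.5, 349 and 549 CPM in the EWS-OCT4 libraries (log2 difference 0.44, SE 0.18, adjusted p = 0.0486). Its rise rested mainly on EWS-OCT4 replicate 3, without which the difference was 0.19 (adjusted p = 0.0923), and the call was also lost without each EGFP library in turn.

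Ltv1, an assembly factor of the 40S head, showed the largest fall. It was at 203, 215 and 179 CPM in the EGFP libraries and 80.2, 74.4 and 61.6 CPM in the EWS-OCT4 libraries (chromosome 10, 13178140 to 13193168) (log2 difference -1.47, SE 0.14, adjusted p = 8.9e-06). Every EWS-OCT4 value was far below the lowest EGFP value. Its difference lay between -1.55 and -1.36 when any 1 library was left out. The 7 genes that did not pass had differences from -0.17 to 0.32. They were Nob1, the endonuclease that forms the 18S 3′ end, its partner Pno1, the methyltransferase Emg1, the helicase Ddx10, and the processome proteins Utp4, Utp20 and Nop14. Utp4 was at 127, 139 and 118 CPM in the EGFP libraries and 167, 177 and 136 CPM in the EWS-OCT4 libraries (log2 difference 0.32, SE 0.13, adjusted p = 0.0546), and Pno1 at 57.4, 61.0 and 62.9 CPM in the EGFP libraries and 78.3, 78.8 and 61.6 CPM in the EWS-OCT4 libraries (log2 difference 0.27, SE 0.14, adjusted p = 0.115). In both, EWS-OCT4 replicate 3 was the lowest of its line, and both passed without it (adjusted p = 0.00483 and 0.0103). Nob1 was at 45.96, 49.0 and 40.3 CPM in the EGFP libraries and 47.6, 47.7 and 24.8 CPM in the EWS-OCT4 libraries (log2 difference -0.17, SE 0.23, adjusted p = 0.533), again with that library lowest. Utp20 was at 82.5, 81.6 and 101 CPM in the EGFP libraries and 89.1, 83.7 and 73.4 CPM in the EWS-OCT4 libraries (log2 difference -0.11, SE 0.14, adjusted p = 0.521). Nop14 was at 105, 98.0 and 114 CPM in the EGFP libraries and 113, 105 and 134 CPM in the EWS-OCT4 libraries (log2 difference 0.15, SE 0.13, adjusted p = 0.342), and Ddx10 at 154, 151 and 167 CPM in the EGFP libraries and 178, 149 and 205 CPM in the EWS-OCT4 libraries (log2 difference 0.17, SE 0.14, adjusted p = 0.285). In each of these genes the lines overlapped. Emg1 is described with its neighbour.

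Some members share their 3′ end with a gene on the opposite strand that the files also list. Bysl, a late 40S factor (chromosome 17, 47599331 to 47611492), shares 361 exonic bases with Ccnd3, the gene of cyclin D3. Bysl was at 281, 271 and 350.5 CPM in the EGFP libraries and 905, 884 and 1163 CPM in the EWS-OCT4 libraries (log2 difference 1.71, SE 0.15, adjusted p = 5.6e-06), and Ccnd3 at 195, 180.1 and 266 CPM in the EGFP libraries and 840.3, 819.6 and 1078 CPM in the EWS-OCT4 libraries. Bysl thus exceeded Ccnd3 by 85.7, 91.4 and 84.8 CPM in the EGFP libraries and by 65.1, 63.9 and 85.5 CPM in the EWS-OCT4 libraries, which are overlapping ranges. Tsr1, a GTPase-like 40S factor, shares 1240 exonic bases with Srr, the serine racemase gene. It was at 123, 143 and 142 CPM in the EGFP libraries and 93.2, 77.3 and 114 CPM in the EWS-OCT4 libraries (log2 difference -0.52, SE 0.16, adjusted p = 0.0129), with Srr at 88.1, 108 and 103 CPM in the EGFP libraries and 43.8, 37.3 and 45.04 CPM in the EWS-OCT4 libraries. The excess of Tsr1 over Srr was 34.8, 35.4 and 39.2 CPM in the EGFP libraries and 49.4, 40.04 and 68.5 CPM in the EWS-OCT4 libraries, so it was higher in the line where Tsr1 itself was lower. Emg1 was at 87.2, 96.6 and 109 CPM in the EGFP libraries and 109, 113 and 84.7 CPM in the EWS-OCT4 libraries (log2 difference 0.06, SE 0.15, adjusted p = 0.724). It shares 334 bases with Lpcat3, and Emg1 minus Lpcat3 was -27.2, -24.4 and -29.9 CPM for EGFP and -33.8, -38.7 and -42.9 CPM for EWS-OCT4. How strand was used in counting is not given in the sources used here, so tags of each pair cannot be told apart, and the directions of Bysl and Tsr1 are uncertain. Without these 3 genes, 25 members were higher and 2 lower, with a median of 0.46. The call of Tsr1 was also lost without EWS-OCT4 replicate 2 (adjusted p = 0.0578).

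**Figure D3:**
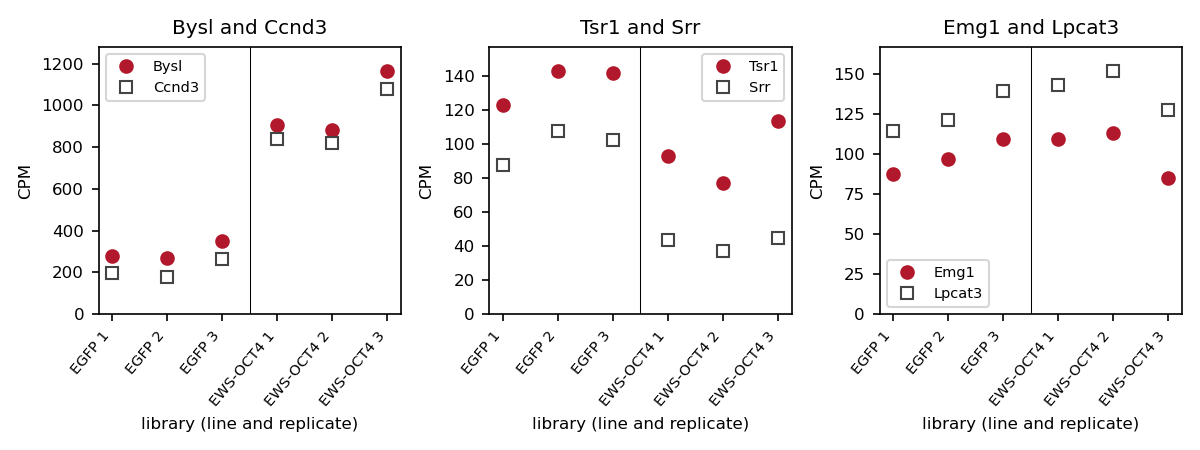
CPM (y axis) of 3 members (filled circles) and of the gene on the opposite strand that shares their 3′ end (open squares) in each of the 6 libraries (x axis). In the first panel the gap between Bysl and Ccnd3 stays between 63.9 and 91.4 CPM while both levels differ between the lines.

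No other member shared more than 77 bases near its 3′ end with an opposite gene that the files list. Dkc1 shares 45 bases with Mpp1, which was at 191 ± 13.2 and 48.6 ± 6.41 CPM in the EGFP and EWS-OCT4 lines, so that Mpp1 was lower where Dkc1 was higher. Nop56 shares 5 bases with Idh3b, which was at 257 ± 8.09 and 91.8 ± 12.1 CPM.

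Large subunit factors were divided too, with 7 higher (50%), 1 lower (7.14%) and 6 that did not pass (median 0.45), against 33.3% and 34.1% of all genes tested. Wdr12, a subunit of the PeBoW complex of precursor processing (chromosome 1, 60069785 to 60098645), was at 33.2, 35.7 and 46.6 CPM in the EGFP libraries and 85.1, 87.7 and 102 CPM in the EWS-OCT4 libraries (log2 difference 1.25, SE 0.16, adjusted p = 7.8e-05). Ddx18, a helicase of 60S formation (chromosome 1, 121553835 to 121567989), was at 172, 156 and 184 CPM in the EGFP libraries and 395, 392 and 395 CPM in the EWS-OCT4 libraries (log2 difference 1.21, SE 0.11, adjusted p = 7.2e-06). Rrp1, a factor of 28S maturation, was at 65.5, 56.6 and 64.1 CPM in the EGFP libraries and 126, 139 and 138 CPM in the EWS-OCT4 libraries (log2 difference 1.12, SE 0.12, adjusted p = 2.5e-05). In all of them the EWS-OCT4 values were higher without overlap, and the 3 values of Ddx18 in that line were almost the same. Of the other PeBoW subunits, Pes1 rose from 75.4 ± 7.04 to 111 ± 7.16 CPM (log2 difference 0.55), and Bop1 was at 52.1, 55.4 and 57.9 CPM in the EGFP libraries and 53.0, 55.0 and 67.0 CPM in the EWS-OCT4 libraries and did not pass (log2 difference 0.08, SE 0.14, adjusted p = 0.627). Wdr74, a factor of nucleolar 60S particles, rose from 47.1 ± 1.25 to 87.8 ± 2.79 CPM. Rrs1, which brings in the 5S ribonucleoprotein, was at 80.6 ± 1.44 and 121 ± 13.2 CPM in the EGFP and EWS-OCT4 lines, and Ebna1bp2 at 80.7 ± 2.87 and 114 ± 16.8 CPM, and both also rose. The 3′ ends of Wdr12 and Ddx18 match 2 processed pseudogenes each. That of Wdr12 also matches transcripts of Pms1 (97.7% over 300 bases), which had 1291 counts over the 6 libraries, and of Vmn1r88 (97% over 300 bases), which had none, so its count is uncertain.

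Nop2, which methylates a cytosine of 28S RNA, fell. It was at 163, 151 and 157 CPM in the EGFP libraries and 117, 124 and 125 CPM in the EWS-OCT4 libraries (chromosome 6, 125131909 to 125144753) (log2 difference -0.36, SE 0.11, adjusted p = 0.0143). The lines did not overlap, but leaving out replicate 1 of the EGFP or of the EWS-OCT4 line ended the call (adjusted p = 0.0544 and 0.062). Genes of this group that did not pass had differences from -0.22 to 0.41. Gnl3, which encodes nucleostemin, a GTPase known for its high level in stem cells, was at 322, 325 and 331 CPM in the EGFP libraries and 276, 252 and 338 CPM in the EWS-OCT4 libraries (log2 difference -0.18, SE 0.13, adjusted p = 0.251). The related GTPase gene Gnl2 was at 142, 138 and 139 CPM in the EGFP libraries and 105, 121 and 135 CPM in the EWS-OCT4 libraries (log2 difference -0.22, SE 0.13, adjusted p = 0.152), and Nop16, a 60S assembly factor, at 93.3, 82.8 and 81.9 CPM in the EGFP libraries and 66.3, 68.0 and 87.3 CPM in the EWS-OCT4 libraries (log2 difference -0.22, SE 0.15, adjusted p = 0.208). In each of these EWS-OCT4 replicate 3 was the highest of its line. Without it Gnl3, Gnl2 and Nop16 were lower by the test (adjusted p = 0.012, 0.0242 and 0.0179), which took the falls among the members from 3 to 6. The share of all genes that fell in that fit is not given here. Nip7, a 60S factor, was at 85.8, 89.9 and 90.8 CPM in the EGFP libraries and 134, 131 and 87.6 CPM in the EWS-OCT4 libraries (log2 difference 0.41, SE 0.17, adjusted p = 0.0523) and passed without that library (adjusted p = 5.2e-04). Brix1, a partner of early 60S particles, was at 124, 119.5 and 158 CPM in the EGFP libraries and 145, 136 and 125 CPM in the EWS-OCT4 libraries (log2 difference 0.01, SE 0.14, adjusted p = 0.94), with EGFP replicate 3 highest.

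Libraries numbered 3 also differed over the whole list. Against the mean of numbers 1 and 2, the number 3 library was higher for 36 of 46 members in the EGFP line and 31 of 46 in the EWS-OCT4 line, with medians of 0.12 and 0.10 on the log2(CPM + 1) scale. Over all genes tested these medians were 0.00 and 0.03. The number 3 library was higher for 50.5% and 52.3% of all genes tested, against 78.3% and 67.4% of the members. The median difference between the lines was 0.55, 0.59 and 0.40 between libraries of number 1, 2 and 3. Using only numbers 1 and 2, 33 members were higher and 6 lower, with a median of 0.60. The share of all genes called in that fit is not given here, so these counts have no background beside them.

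Other genes of the pathway were described from a further list of 98, all of them tested. Of these, 39 rose, 17 fell and 42 did not pass, which is 39.8% higher and 17.3% lower, with a median of 0.22. Over all genes tested 33.3% were higher and 34.1% lower, and 67.4% passed against 57.1% of this list. By role, 5 of 11 genes of RNA polymerase I rose and 2 fell, and 6 of 8 snoRNP assembly genes rose and 1 fell. Of 38 genes of the small subunit processome 10 rose (26.3%) and 8 fell (21.1%), both below the shares of all genes, with a median of 0.01, and of 41 large subunit genes 18 rose (43.9%) and 6 fell (14.6%), with a median of 0.23. Small subunit genes thus had the lower median in both lists, a difference that was not tested. The largest rises were in Naf1, an assembly factor of box H/ACA snoRNPs (39.7 ± 5.84 to 101 ± 22.4 CPM, log2 difference 1.35), Imp3, a U3 snoRNP protein (45.8 ± 3.49 to 107 ± 9.69 CPM, 1.23), and Lyar (155 ± 18.4 to 354 ± 57.2 CPM, 1.19). The largest falls were in Las1l, an endonuclease of 60S processing (686 ± 90.2 to 115 ± 15.8 CPM, -2.57), Senp3, a SUMO protease of the nucleolus (146 ± 73.8 to 27.8 ± 7.18 CPM, -2.39), and Rrp7a (33.6 ± 0.530 to 14.5 ± 1.65 CPM, -1.21). Senp3 was at 61.0 CPM in EGFP replicate 3 against 192 and 186 CPM in the others of its line, and its difference without that library was -2.77. Rrp7a shares 678 exonic bases with Serhl on the opposite strand, but none of them lie in its last 500 bases. Some genes of this list share more than 200 bases near their 3′ end with a counted gene on the opposite strand. Of these Taf1c, Nol11, Ddx49 and Nsa2 rose, Noc2l and Znhit3 fell, and Tbl3, Nop9 and Tex10 did not pass. Their directions are uncertain as for Bysl and Tsr1, and they were kept in the counts above.

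Protein genes of the ribosome itself were set beside the members. All but 2 of 86 cytoplasmic ribosomal protein genes rose and none fell (median 1.24), and many of these genes have near-identical copies. Among 77 mitochondrial ribosomal protein genes 32 rose (41.6%) and 9 fell (11.7%), with a median of 0.28. Of all genes tested 33.3% rose and 34.1% fell, and 67.4% passed against 53.2% of the mitochondrial family. The median of the 46 biogenesis genes, 0.46, lay between those of the ribosomal protein families.

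**Figure D4:**
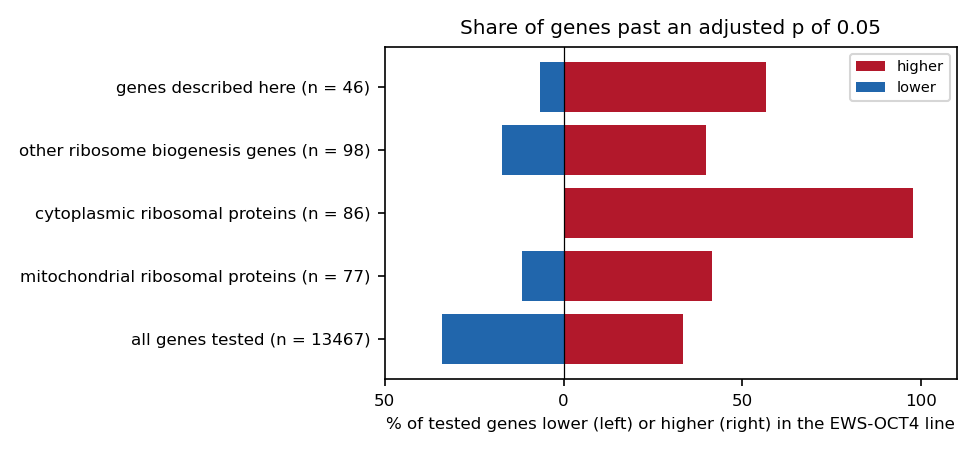
Percent of tested genes that passed an adjusted p of 0.05 as higher (red, right) or lower (blue, left) in the EWS-OCT4 line, for the 46 genes, 3 related gene lists and all genes tested. The 46 genes show 56.5% higher and 6.52% lower, against 33.3% and 34.1% of all genes.

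Rn45s, the precursor RNA that these proteins make and process, was counted in the same libraries. Its share of counts was 6.44%, 6.10% and 5.85% for EGFP and 10.4%, 10.5% and 7.36% for EWS-OCT4, and the last had a Wilson 95% interval of 7.34 to 7.37 that covers counting error only. In the fit its difference was 0.67 (SE 0.15, adjusted p = 0.00239), and with a test against 1.5-fold it did not pass (adjusted p = 0.202). EWS-OCT4 replicate 3 was the lowest of its line for Rn45s, whereas the summed level of the members was highest there. This RNA lacks a long poly(A) tail, and how the library kit captures it was not tested.

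MYC-family genes, which encode known activators of ribosome biogenesis, moved apart. Myc was at 23.8, 22.6 and 13.2 CPM in the EGFP libraries and 0.829, 1.20 and 0.168 CPM in the EWS-OCT4 libraries (log2 difference -4.77, SE 0.47, adjusted p = 1.2e-05). Mycn was at 22.9, 17.2 and 28.0 CPM in the EGFP libraries and 103, 122 and 72.7 CPM in the EWS-OCT4 libraries (log2 difference 2.13, SE 0.23, adjusted p = 2.3e-05). Mycl was at 1.19, 0.420 and 1.69 CPM in the EGFP libraries and 35.2, 27.7 and 17.0 CPM in the EWS-OCT4 libraries (log2 difference 4.57, SE 0.43, adjusted p = 8.3e-06). Myc was therefore lower, and Mycn and Mycl higher, in every EWS-OCT4 library.

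**Figure D5:**
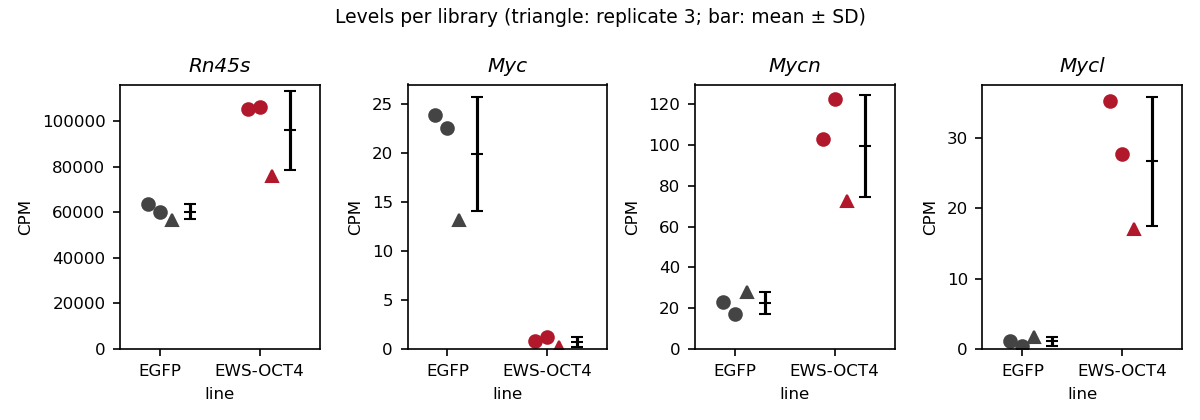
CPM (y axis, from 0) of Rn45s, Myc, Mycn and Mycl in each library of the EGFP and EWS-OCT4 lines (x axis), with replicate 3 as a triangle and the mean ± SD (n = 3) beside the points. Myc is lower and the other genes higher in every EWS-OCT4 library.

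Several members carry genes of small nucleolar RNAs (snoRNAs) inside them. The annotation places 29 of them inside 8 members, and 13 of these have a row in the files. Snora75, inside Ncl, had 25, 16 and 90 counts for EGFP and 602, 689 and 1162 for EWS-OCT4, or 1.86, 1.12 and 5.85 CPM in the EGFP libraries and 55.5, 63.6 and 97.5 CPM in the EWS-OCT4 libraries (log2 difference 4.59, SE 0.48, adjusted p = 1.8e-05). Its host Ncl differed by 0.95. Whether the changes of Snora75 and Ncl differ was not tested, and because Snora75 overlaps exons of some Ncl transcripts its tags are uncertain. The other snoRNAs had at most 42 counts over all 6 libraries. Those with at least 10 were Snord92 in Wdr43, Snord57 and Snord110 in Nop56, Snord70 and Snord11 in Nop58, Gm24148 in Ncl and Gm25500 in Taf1d, all at less than 1 CPM in every library.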

How the data were processed

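The data were 3′ RNA tags from 6 libraries, 3 per line, prepared with a Lexogen QuantSeq kit from Trizol RNA per the labels' protocols and grouped by sample title. Each library's deposited file lists a gene symbol and its count, a whole number. Bowtie2, mm10 and edgeR are named in the submitters' processing notes. Not given in the sources used here are versions, how tags were counted, with which annotation, and whether strand was used. A file held 23282 lines. The 35 symbols on more than 1 line were summed, and 4305 symbols had no count.

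After edgeR's filterByExpr (count 10, total 15), 13467 genes were kept for a robust quasi-likelihood F test of the lines (edgeR 4.0.16), with TMM factors from 0.971 to 1.03. The SE is the size of the log2 difference divided by the square root of F. The biological coefficient of variation was 19.3%. Members and gene lists were chosen with earlier results of these data known, so lists are described by counts and medians and not tested. Every member may be named; per-library values are given for the 3 called members with the largest change in each role, for members that fell and for those that did not pass. Also named are the 3 largest rises and falls of the wider list, Pou5f1, Ewsr1, Rn45s, Myc, Mycn, Mycl and snoRNAs inside members with at least 10 counts. Coordinates are from GENCODE M21 (GRCm38). Copies were sought with the last 300 bases of coding transcripts, at 95% identity over at least 100 bases, which matched another gene for 8 members (Ddx18, Fbl, Nop56, Nop58, Npm1, Polr1b, Taf1d, Wdr12).

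Alternatives were leaving out each library, libraries numbered 1 and 2 alone, a replicate block, DESeq2 size factors, Rn45s left out of library sizes, no low-count filter, DESeq2 1.42.0, voom (limma 3.58.1), only genes averaging 10 CPM or more, a test against 1.5-fold and an adjusted p of 0.01. The background of genes averaging 10 CPM or more, leaving out genes with shared 3′ ends and 2 further promoter motifs were added after seeing the data. Protein sequences were not used here.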

Additional observations from a re-analysis of the deposited data

How the results depend on the processing

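Leaving out 1 library at a time gave 23 to 28 members higher, 2 to 6 lower and a median of 0.40 to 0.53. The highest median came without EGFP replicate 3 and the 6 falls without EWS-OCT4 replicate 3. With numbers 1 and 2 alone there were 6 falls and a median of 0.60, and fewer samples entered that fit. The shares of all genes called in the fits that left out libraries are not given here, so these counts have no background beside them. The test against 1.5-fold left 16 members higher and 1 lower, and an adjusted p of 0.01 left 1 lower. For the other ribosome biogenesis genes the test against 1.5-fold gave 15 higher and 5 lower and an adjusted p of 0.01 gave 11 lower. For mitochondrial ribosomal proteins the former gave 11 higher and 2 lower and the latter 20 higher. Those stricter tests lower the counts by construction, and the shares of all genes that passed them are not given here.

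None of the 29 called members changed sign in the 14 alternatives that did not raise the threshold, and 24 of them kept their call in all 14. The stricter tests use the differences of the main fit, so no sign could change there. The exceptions were Polr1b, Polr1e, Wdr43, Tsr1 and Nop2. Signs changed for members that had not passed and lay near 0, and the cause was not tested. With 1 library left out, differences ran from -0.057 to 0.28 for Nop56, -0.19 to 0.26 for Gar1, -0.011 to 0.22 for Ddx21, -0.024 to 0.18 for Emg1, -0.32 to 0.083 for Nob1, -0.028 to 0.15 for Bop1 and -0.074 to 0.14 for Brix1. In numbers 1 and 2 alone the difference was 0.31 for Gar1 (adjusted p = 0.00149), 0.0943 for Utp20, 0.0249 for Nob1 and 0.0633 for Ewsr1. Gar1 was at 0.0231 among genes averaging 10 CPM or more, and Brix1 at -0.0044 with no filter.

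The labels name no link between same-numbered libraries beyond the number. Their deviations from the line means correlated at 0.05, 0.07 and 0.16 across genes (log2 of CPM + 1). EGFP replicates 1 and 2 did not correlate best with their own number. EGFP replicate 3 did, and it stood at -0.11 and -0.12 with EWS-OCT4 replicates 1 and 2. What sets the libraries numbered 3 apart in both lines was not tested. With the replicate number as a block, 26 members were higher and 3 lower (median 0.47), with Polr1b lost (adjusted p = 0.0526) and Utp4 gained (adjusted p = 0.0382). The share of all genes called in the fit with that block is not given here.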
